A study of Mus musculus with 4 samples.

Results

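The regulators of mitochondrial biogenesis and dynamics described here are 10 genes of the 21631 protein-coding genes of the autosomes and the X chromosome. They were chosen by name, with earlier results of these data known. They are the coactivator genes Ppargc1a and Ppargc1b, the transcription factor genes Esrra, Nrf1 and Gabpa, the mitochondrial DNA packaging gene Tfam, the fusion genes Mfn1, Mfn2 and Opa1, and the fission gene Dnm1l. The data were the peak lists of 2 replicates of Deaf1 ChIP-seq in C2C12 cells, a mouse line of myoblasts that fuse into myotubes in culture, and the series also holds 2 input samples, not analysed here. Deaf1 is a transcription factor that binds DNA through its SAND domain. All samples were formaldehyde-crosslinked cells that the labels call myocytes and the series' design calls differentiated myoblasts. No genotype, treatment or time is given in the labels. A peak was assigned to a gene when its summit, the base with the highest signal, lay inside the gene's RefSeq span or within 5 kb of it, and 70 peaks were found in this way at the 10 genes.

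Mitochondrial biogenesis is driven by a cascade in which PGC-1 coactivators bind and activate nuclear factors such as ERRα, NRF1 and GABP, which in turn switch on nuclear genes of the respiratory chain and Tfam, whose product carries mitochondrial DNA transcription and packaging. Dynamics are the opposing fusion and fission of the organelle: mitofusins join the outer membrane, Opa1 joins the inner membrane, and the dynamin Drp1, encoded by Dnm1l, constricts and cuts it. In skeletal muscle the cascade is known for its response to endurance exercise, and fusion and fission for their part in the upkeep of the mitochondrial network.

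Stretches around transcription starts are printed for 5 of the genes because they cover the range of outcomes. At Tfam and Dnm1l the summits of both replicates lay within the printed bases, and at Mfn1 they lay just downstream of them. At Opa1 replicate 1 alone had a peak, its summit also downstream of the printed bases. At the Ppargc1a start neither replicate had a peak. Each runs 5′ to 3′ on the gene's strand from 250 bases before the start through 50 bases from the start on (RefSeq, GRCm38.p6, the assembly behind mm10). Capitals mark TTCG, the core that Deaf1 is known to bind, or its reverse complement CGAA.
Tfam, chr10:71237995-71238294, minus strand: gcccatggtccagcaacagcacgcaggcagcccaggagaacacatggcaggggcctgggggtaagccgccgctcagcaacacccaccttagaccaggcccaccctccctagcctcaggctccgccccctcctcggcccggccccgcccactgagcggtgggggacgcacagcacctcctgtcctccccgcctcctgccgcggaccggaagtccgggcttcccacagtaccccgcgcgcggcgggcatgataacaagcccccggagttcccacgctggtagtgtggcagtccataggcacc
Dnm1l, chr16:16358526-16358825, minus strand: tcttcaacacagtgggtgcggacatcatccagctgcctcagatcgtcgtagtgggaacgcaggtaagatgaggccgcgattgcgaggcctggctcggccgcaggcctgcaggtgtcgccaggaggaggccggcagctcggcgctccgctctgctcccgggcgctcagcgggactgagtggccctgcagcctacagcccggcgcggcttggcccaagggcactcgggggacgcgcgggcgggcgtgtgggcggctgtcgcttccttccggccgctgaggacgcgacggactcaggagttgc
Mfn1, chr3:32529232-32529531, plus strand: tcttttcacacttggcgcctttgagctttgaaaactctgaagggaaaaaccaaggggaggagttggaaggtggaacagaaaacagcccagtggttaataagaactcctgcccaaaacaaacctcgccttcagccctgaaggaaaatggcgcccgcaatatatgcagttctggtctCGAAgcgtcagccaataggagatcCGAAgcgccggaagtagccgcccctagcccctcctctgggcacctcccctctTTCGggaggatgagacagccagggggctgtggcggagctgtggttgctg
Opa1, chr16:29579084-29579383, plus strand: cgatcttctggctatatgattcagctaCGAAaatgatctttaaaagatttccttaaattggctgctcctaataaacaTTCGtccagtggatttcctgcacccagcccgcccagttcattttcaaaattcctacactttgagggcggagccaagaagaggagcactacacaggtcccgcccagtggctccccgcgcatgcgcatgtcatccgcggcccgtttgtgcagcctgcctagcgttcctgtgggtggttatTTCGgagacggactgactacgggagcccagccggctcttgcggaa
Ppargc1a, chr5:51567676-51567975, minus strand: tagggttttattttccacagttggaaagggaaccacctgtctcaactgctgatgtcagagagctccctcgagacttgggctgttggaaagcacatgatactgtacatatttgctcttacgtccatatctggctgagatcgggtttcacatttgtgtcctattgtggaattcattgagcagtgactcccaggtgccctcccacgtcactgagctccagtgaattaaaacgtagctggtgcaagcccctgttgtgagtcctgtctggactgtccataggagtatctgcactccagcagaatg

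Of the 10 genes, 9 had Deaf1 ChIP peaks in both replicates that overlapped by at least 1 bp with both summits in the span or within 5 kb, and Opa1 was the exception. By this rule 63.4% of all protein-coding genes were called, and 73.9% of those at least as long as the shortest of the 10 genes, Esrra (11072 bp). By a stricter rule, summits of both replicates within 1 kb of the same end of the span, 9 of the 10 were called, against 51.6% of all genes. With a fold enrichment of 10 or more also required in both replicates, the count was 9 again, against 35.8% of all genes. The fold enrichment is the authors' ratio of the summit's pileup (fragments covering it) to the local background estimated by the peak caller. For 9 of the genes the reference also gave transcription starts, and at 7 of these a start had summits of both replicates within 1 kb, against 54.0% of the 17274 genes with a start. The 2 without were Opa1 and Ppargc1a. No test was made of these counts, since the genes were chosen with earlier results of these data known.

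In replicate 1 the folds of the strongest peaks at the 9 genes ran from 15.0 to 29.1, and 87.0% to 99.8% of the list's 65606 peaks had a lower fold. In replicate 2 they ran from 18.6 to 29.7, above 81.0% to 97.96% of its 26503 peaks. Each is a gene's best peak, which a ranking against single peaks favours. Over the best end peaks of the 11164 genes called in both replicates the median folds were 16.4 and 15.2, and Gabpa's replicate 1 fold of 15.0 was below the first of these. By the lower of the 2 folds, 55.5% (Gabpa) to 97.0% (Esrra) of those genes stood below the 9, with Tfam at 63.1%. The 2 summits at each of the 9 genes lay 1 to 51 bp apart. Intervals given below are 95% Poisson intervals of the summit pileup and cover counting error only. Those of the 2 replicates overlapped at 9 of 9 genes, at Gabpa only narrowly (11.9 to 18.7 and 18.5 to 29.2). The share of all genes with such overlap was not computed, and overlap of intervals is no test of agreement. A peak list gives no expression, so the labelled cell type could not be checked. Of 6 muscle genes, 5 (Myod1, Myog, Des, Ckm and Actc1) were called at a span end in both replicates and Myh3 was not, against 51.6% of all genes.

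**Figure D1:**
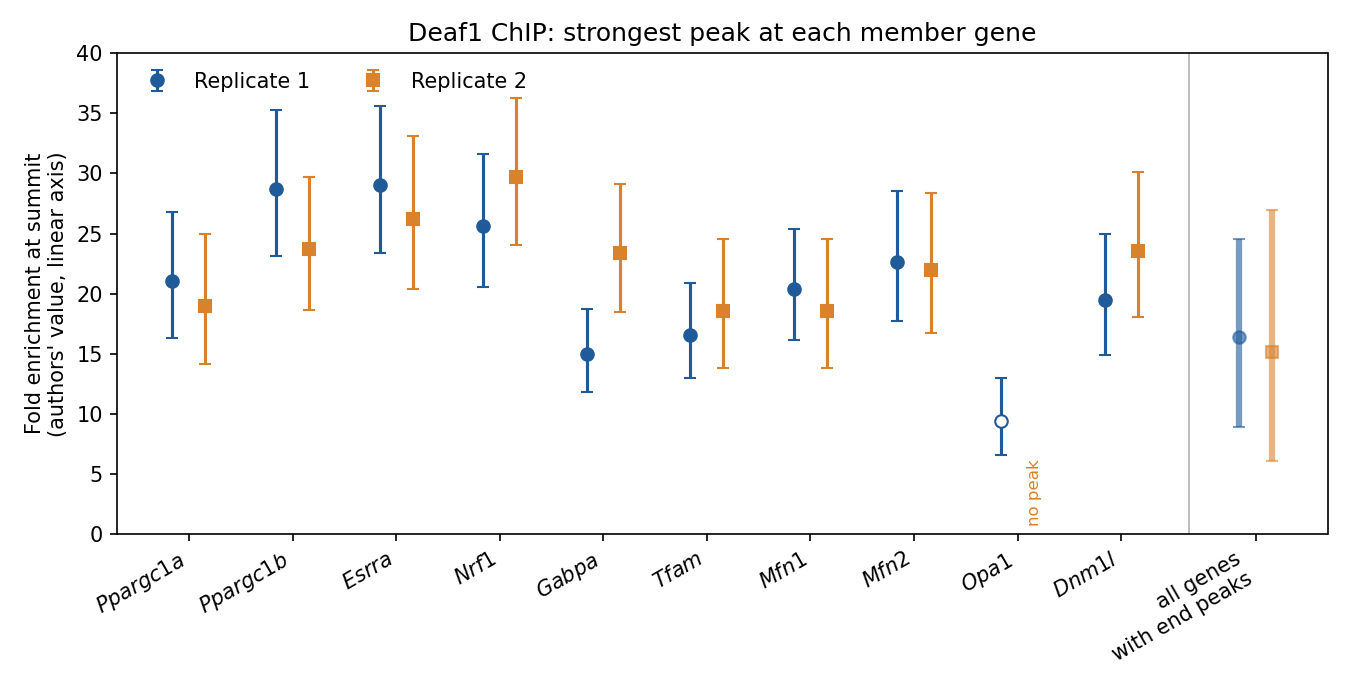
Fold enrichment of the strongest Deaf1 ChIP peak at each gene in replicates 1 and 2, with 95% Poisson intervals of the pileup; the open circle at Opa1 is a peak found in replicate 1 alone. At the right, thick bars run from the 10th to the 90th percentile of all genes with end peaks in both replicates around their medians of 16.4 and 15.2. Nrf1 reached 29.7 in replicate 2 and Esrra 29.1 in replicate 1.

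Among the transcription factor genes, Esrra had the highest replicate 1 fold of the 10 genes. Esrra encodes ERRα, an orphan nuclear receptor that recruits PGC-1 coactivators to genes of oxidative metabolism (chromosome 19, 6910977 to 6922048). Its strongest peak had a fold of 29.1 in replicate 1 (interval 23.4 to 35.6) and 26.2 in replicate 2 (20.4 to 33.1), from pileups of 90 and 68 fragments. The summits lay 176 and 183 bp downstream of the annotated start. The span of Catsperz, a sperm cation channel subunit gene, lies within 1 kb of this summit, so the peak cannot be given to Esrra alone.

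Esrra was also the gene with the most regions found in both replicates, 6 in all, in a gene-dense stretch. Weaker regions inside the gene had folds of 10.9 and 6.83, beside the microRNA gene Mir6990, and 8.30 and 4.55. Below the gene's lower end, where Trmt112 (a methyltransferase partner) and Prdx5 (a peroxiredoxin that sits in mitochondria among other places) lie, 2 regions had folds of 11.9 and 8.08, and 5.84 and 5.58. The last lay above the higher end near Catsperz and the potassium channel gene Kcnk4, with 13.4 and 9.48. Of these 6 regions, 3 thus had summits outside Esrra itself.

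Nrf1 encodes nuclear respiratory factor 1, an activator of genes of the respiratory chain and of Tfam (chromosome 6, 30047985 to 30153458). It had the highest replicate 2 fold of the 10 genes, 29.7 (interval 24.0 to 36.3), and 25.6 (20.6 to 31.6) in replicate 1, from pileups of 93 and 86 fragments. The summits lay 259 and 268 bp downstream of the start nearest the span's lower end, with no other gene within 1 kb. A second start in the reference, 28065 bp from the nearest replicate 1 summit, had no peak of either replicate. Replicate 1 alone had a further peak 1921 bp inside the higher end with a fold of 7.98.

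Gabpa encodes the DNA-binding ETS subunit of GABP, also called NRF2, which activates cytochrome oxidase and other respiratory genes (chromosome 16, 84834891 to 84863783). Its strongest peak had folds of 15.0 in replicate 1 (interval 11.9 to 18.7) and 23.4 in replicate 2 (18.5 to 29.2). The summit pileups were nearly equal, 76 and 77 fragments, and the local backgrounds were 4.14 and 2.34 fragments, so the lower fold went with a higher background. The summits lay 360 and 411 bp downstream of the Gabpa start and inside the span of Atp5j, which encodes a subunit of the mitochondrial ATP synthase. A second region near the span's lower end was weak, with folds of 7.69 and 3.30. The peaks are shared by both genes.

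**Figure D2:**
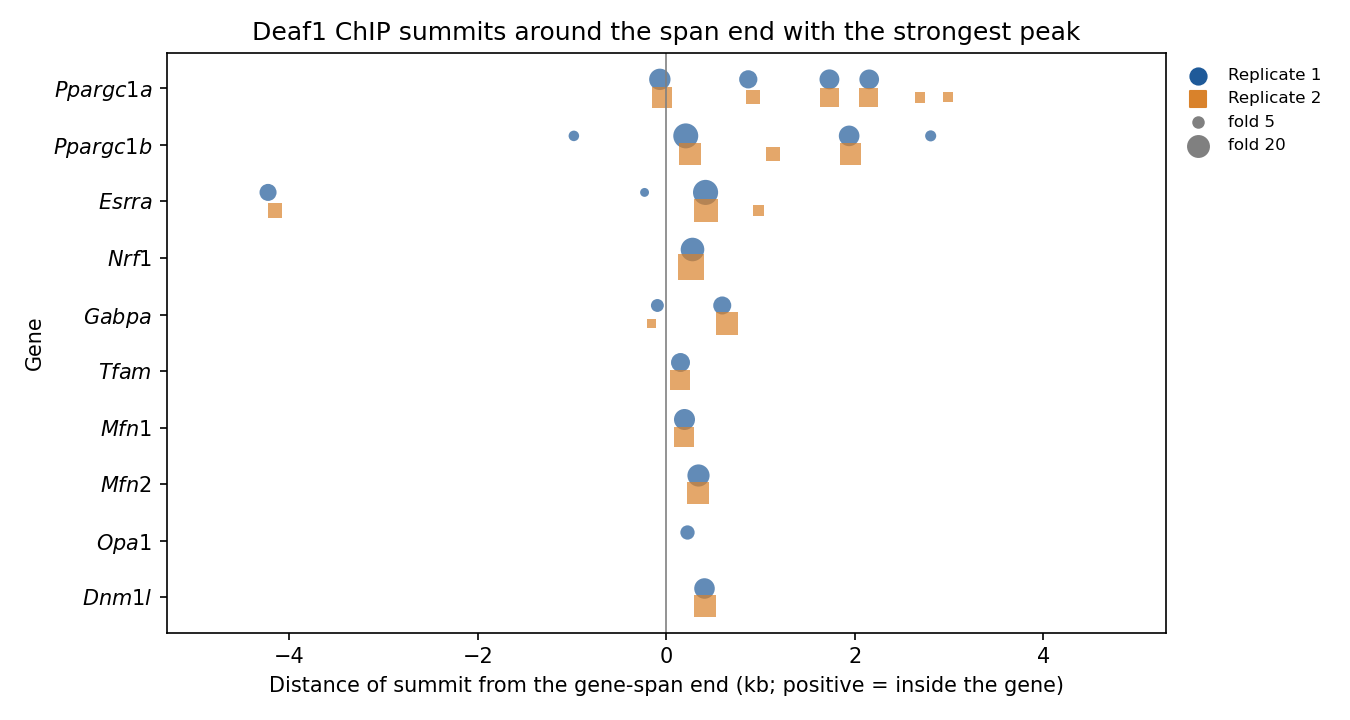
Summits of Deaf1 ChIP peaks within 5 kb of the span end that carries each gene's strongest peak; the x axis gives the distance from that end in kb, positive inside the gene, and marker area follows the fold. In 9 of the genes summits of both replicates stand within 1 kb of the end, Opa1 has replicate 1 alone, and Ppargc1a shows a row of peaks reaching 2992 bp into the gene.

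The coactivator genes carried more than 1 strong region each at the higher-coordinate end of their spans. Ppargc1a encodes PGC-1α, the coactivator whose expression rises with exercise and cold (chromosome 5, 51454249 to 52115853). At its higher end 4 regions found in both replicates stood side by side. The outermost, with summits 69 and 47 bp outside the span, had a fold of 21.1 in replicate 1 (interval 16.3 to 26.8) and 18.96 in replicate 2 (14.1 to 24.9). The next had 15.3 and 9.10, the one after it 18.2 and 17.1, and the innermost 17.9 and 15.9, the last with summits 2152 and 2142 bp inside. By the best pair of peaks in each, the region with 15.3 and 9.10 was the lowest of the 4 in both replicates. The innermost replicate 1 peak also overlapped weaker replicate 2 peaks, with folds of 4.55 and 4.93. No other annotated gene lay within 1 kb of the strongest summit.

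None of these regions lay at the Ppargc1a start that the reference gives, base 51567725 on the minus strand. The nearest summit to that start was 545976 bp away in replicate 1 and 545136 bp away in replicate 2, and all 10 Ppargc1a peaks stood in the cluster at the far upstream end. The gene's span, 661605 bp, runs over every RefSeq model, predicted ones included, and the reference table does not say which model begins at its far end. As background, a far-upstream promoter active in brain has been described for the human gene. In C2C12 cells a peak there does not show that the upstream start was in use.

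Ppargc1b encodes PGC-1β, a relative of PGC-1α that also coactivates ERRα (chromosome 18, 61291445 to 61400756). Its strongest peak had a fold of 28.7 in replicate 1 (interval 23.1 to 35.3) and 23.7 in replicate 2 (18.7 to 29.7), with summits 206 and 252 bp inside the higher end. The long noncoding RNA gene Gm52354 covers the same bases. A second region, 1939 and 1950 bp inside, had 19.6 and 20.9, and the microRNA gene Mir378a lies within 1 kb of it. Mir378a is carried in an intron of Ppargc1b. Another region deep inside the gene was weak, with 5.75 and 4.17.

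Most further Ppargc1b peaks were seen once. Replicate 1 had 17 peaks at the gene, of which 14 had no overlapping replicate 2 peak, and their folds ran from 3.83 to 9.26. Replicate 2 had 5 peaks, of which 1 had no partner. Over all 10 genes replicate 1 had 45 peaks, 25 of them without a partner, and replicate 2 had 25 peaks, 1 of them without. Over the whole lists 35.0% of replicate 1 peaks and 93.9% of replicate 2 peaks had a partner.

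**Figure D3:**
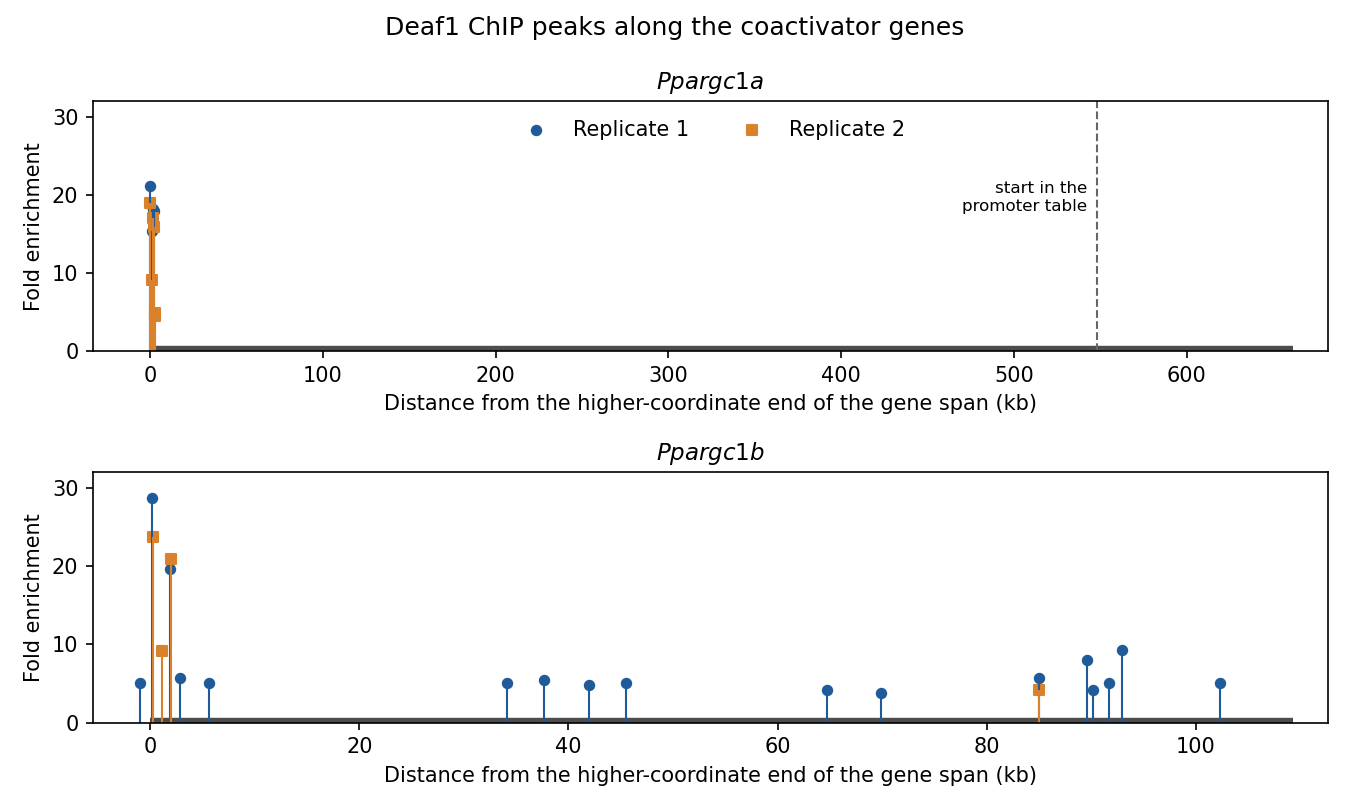
Deaf1 ChIP peaks along the spans of Ppargc1a and Ppargc1b, with the distance from the higher-coordinate end in kb on the x axis and the fold enrichment on the y axis. The Ppargc1a peaks gather at 0 kb while the start in the promoter table (dashed line) has none, and Ppargc1b shows weak peaks of replicate 1 along its length.

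Tfam, which encodes the protein that coats mitochondrial DNA and starts its transcription, had a single peak in each replicate (chromosome 10, 71225468 to 71238328). Its fold was 16.6 in replicate 1 (interval 13.0 to 20.9) and 18.6 in replicate 2 (13.8 to 24.5), and the 2 summits lay 1 bp apart. They stood 135 and 134 bp upstream of the annotated start, at bases 116 and 117 of the printed stretch. Both were still inside the gene's span, 149 and 150 bp from its higher end. Its replicate 1 background of 3.34 fragments was above the list's lowest of 2.13, and its replicate 2 background of 1.64 equalled that list's lowest. No neighbouring gene lay within 1 kb.

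Both mitofusin genes had a strong peak at their starts. Mfn1 (chromosome 3, 32529443 to 32579225) had folds of 20.4 in replicate 1 (interval 16.1 to 25.4) and 18.6 in replicate 2 (13.8 to 24.5), with summits 147 and 152 bp downstream of the start. Mfn2 (chromosome 4, 147873586 to 147904909) had 22.7 (17.8 to 28.5) and 22.0 (16.8 to 28.4), with summits 87 and 89 bp downstream of the nearest of its 3 annotated starts. The mitofusins are outer-membrane GTPases, and Mfn2 also tethers mitochondria to the endoplasmic reticulum. Within Mfn2 replicate 1 alone had 3 weaker peaks, with folds of 3.51 to 6.07.

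Opa1, the gene of the inner-membrane fusion GTPase that also shapes cristae, was the only one of the 10 without a peak in replicate 2 (chromosome 16, 29579281 to 29663127). In replicate 1 a peak stood 169 bp downstream of the start with a fold of 9.41 (interval 6.60 to 13.0) and a pileup of 34 fragments. The other 3 replicate 1 peaks had folds of 3.53 to 5.75. The nearest replicate 2 summit was 155625 bp from the start. Of the 4902 replicate 1 peaks with a fold within 10% of this one, 63.3% overlapped a replicate 2 peak, whereas 99.9% of those with a fold of 15.0 or more (the lowest strongest peak of the other 9 genes) did. Most replicate 1 peaks near this fold thus had a partner, against 35.0% of the whole replicate 1 list, and the Opa1 peak had none. Why it had none was not tested, and a lack of Deaf1 signal in replicate 2 is not shown.

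Dnm1l encodes Drp1, the dynamin-related GTPase that divides mitochondria and peroxisomes (chromosome 16, 16312228 to 16359038). Its single peak had a fold of 19.5 in replicate 1 (interval 14.9 to 24.98) and 23.5 in replicate 2 (18.1 to 30.1), from pileups of 60 and 61 fragments. The backgrounds, 2.13 and 1.64, were the lowest of each list. The summits lay 61 and 48 bp upstream of the nearer of 2 annotated starts, at bases 190 and 203 of the printed stretch, and 395 and 408 bp downstream of the other. No neighbouring gene lay within 1 kb.

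Relative to the nearest start, the strongest summits lay downstream in 5 of the 7 genes with start peaks (Esrra, Nrf1, Gabpa, Mfn1 and Mfn2) and upstream in 2 (Tfam and Dnm1l). Over the 9333 genes with start peaks the strongest summit lay downstream in 73.0% in replicate 1 and 71.6% in replicate 2, with medians of 112 and 108 bp downstream.

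The Deaf1 core TTCG, searched on both strands, stood in 6 of 13 stretches around the starts, at Esrra, Nrf1, Gabpa, Mfn1, Opa1 and Dnm1l, and in 49.4% of 21045 stretches of protein-coding genes. The printed Opa1 stretch held 3 copies, as did the stretches of Gabpa and Mfn1. The Tfam stretch, the printed Dnm1l stretch and the 3 stretches of Mfn2 held 0, although the Tfam and Dnm1l summits lay in theirs. The stretches of Ppargc1a and of the second Nrf1 start, neither with a peak of either replicate, also held 0. The longer TTCGG, which contains TTCG, stood at Gabpa, Mfn1 and Opa1, and in 22.2% of all stretches. These windows do not cover the whole of the peaks, and a match of letters is no measure of binding.

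Letters of the factors encoded by the genes themselves were searched in the same way. The NRF1 motif GCATGCGC stood in the stretches of Esrra and Opa1 and in 3.54% of all, and the ETS motif CGGAAG, which GABP can bind, at Gabpa, Tfam, Mfn1 and Dnm1l and in 21.3% of all. The ERRα letters AAGGTCA stood in 0 of the 13 and in 4.06% of all. In CpG content the stretches ranged widely: the Nrf1 start with the peak had 43 CpG and its second start, without one, 2. The Ppargc1a start, also without a peak, had 5, and the median over all stretches was 13. In the other direction, the Mfn1 start with peaks of both replicates had 12, and the Opa1 start with a replicate 1 peak alone had 18.

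Other genes of the same processes, 52 in number, were called at a span end in both replicates in 38 cases, against 51.6% of all genes. At annotated starts 38 of the 46 with a start were called, against 54.0% of all genes with one. When a fold of 10 or more was required in both replicates, 24 of the 52 had an end peak, against 35.8% of all genes. In the 38 the folds ran from 2.59 to 29.1 in replicate 1 and from 3.26 to 30.3 in replicate 2.

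By role, 8 of 12 partners of the biogenesis factors had peaks of both replicates at the same end, against 51.6% of all genes. Among these end peaks Hcfc1, a coregulator that binds GABP, had the highest lower fold, with 27.1 and 23.1. The nuclear receptor gene Ppara had 21.7 and 20.9, and Pprc1, another PGC-1 family gene, 19.8 and 28.8. For mitochondrial DNA replication and expression the count was also 8 of 12. Its highest were Mgme1, a mitochondrial exonuclease gene, with 26.3 and 27.3 (a peak shared with Snx5), the transcription factor gene Tfb2m with 27.1 and 20.2 (shared with Cnst), and the mitochondrial RNA polymerase gene Polrmt with 19.5 and 24.3 (near Hcn2). At Hcfc1 the summits nearest an annotated start had lower folds, 9.58 and 4.17, and at Polrmt 6.79 and 10.6. Rxra, a partner with end summits at different ends and so not called, had folds of 25.5 and 26.5 nearest an annotated start.

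Fission genes were called in 8 of 12 cases, again against 51.6% of all genes, and no difference between roles was tested. Marchf5, a ubiquitin ligase gene of the outer membrane, had 23.6 and 28.4 at a peak shared with Cpeb3, the formin gene Inf2 had 21.7 and 26.9, and Mtfr1l 20.2 and 18.96. Genes of fusion and the inner membrane were called in 10 of 12 cases, with the ion transport gene Letm1 at 23.3 and 23.1, the protease subunit gene Afg3l2 at 22.3 and 22.8, and the phospholipase gene Pld6 at 20.4 and 20.1. The 4 genes of mitochondrial transport along microtubules were all called. Of these the adaptor gene Trak1 had 29.1 and 30.3, the Miro GTPase gene Rhot1 23.3 and 22.2, and Trak2 17.7 and 22.0 at a peak shared with Stradb. Nearest the annotated Trak2 start the replicate 2 summit had a fold of 8.78.

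In 9 of the 52 genes neither replicate had a summit within 1 kb of an end. The matching share of all genes was not computed, so these counts cannot be read as low or high. At 4 of them (Esrrb, Gabpb1, Polg and Oma1) summits of both replicates nevertheless lay within 1 kb of an annotated start inside the span. At Gabpb1, which encodes the activating partner of Gabpa's product, the summits nearest the start had folds of 15.4 and 13.6, and at the DNA polymerase gene Polg 26.8 and 27.4. Another 4, Twnk, Mterf1a, Mief1 and Phb, had none at a start either, and Mtfr1 had no start in the reference. The end rule thus misses peaks at starts that lie away from the span's ends, as it also counts the far end of Ppargc1a.

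**Figure D4:**
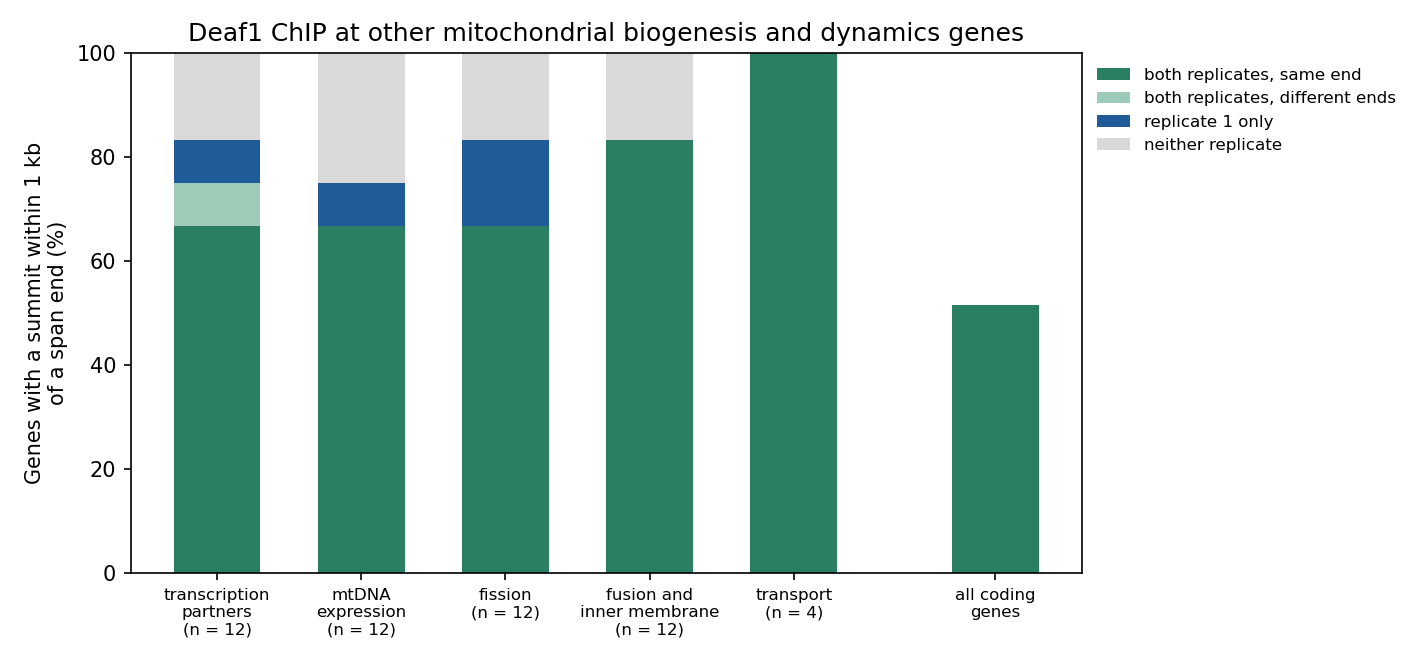
Share of the other genes of mitochondrial biogenesis and dynamics, by role, with a Deaf1 ChIP summit within 1 kb of a span end in both replicates at the same end, in both at different ends, in replicate 1 alone or in neither. The bar at the right gives the 51.6% of all protein-coding genes called in both replicates at the same end; role groups run from 8 of 12 to 4 of 4.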

How the data were processed

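Deaf1 ChIP-seq peak lists of 2 replicates were analysed, and the 2 inputs were not. BWA, MACS2 and build mm10 are named in the submitters' processing notes; versions, settings and the peak caller's control were not given in the sources used here. For each peak the authors deposited a fold enrichment (a ratio), a −log10 p-value, a −log10 q-value and a score that equals 10 times the −log10 p rounded down. Peaks were called per sample. Chromatin was digested enzymatically, per the labels' protocols. The files give no read depth. Nothing in the labels says whether the replicates were separate cultures, so the spread between them may be technical only.

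Gene spans, starts and sequences came from RefSeq tables of GRCm38.p6. Summit pileup n and background b were solved from fold = (n + 1)/(b + 1) and a Poisson p, with a misfit of at most 1.33e-05 in −log10 p, and the steps were tested on simulated data. Intervals are exact Poisson intervals at 95%. Replicate peaks were paired when they overlapped by at least 1 bp. Genes and lists were chosen with earlier results of these data known, so no test was made. All 10 genes are named, and of the 52 others the 3 highest per role by the lower of the 2 folds and those without an end peak. Rxra was named in addition, for its start peak. Alternatives changed windows, thresholds, overlap, list length and replicates. Python 3.11.15 with pandas 2.3.3 and scipy 1.17.1 was used.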

Additional observations from a re-analysis of the deposited data

How the results depend on the processing

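No paired analysis was possible because only the ChIP samples gave peak lists, and the inputs that share their replicate numbers gave none. The count of genes with overlapping peaks in the span or within 5 kb was 9 of 10 in the main setting. It was 9 again in 10 of 11 alternatives, with Opa1 missing each time. In these the share of all genes called ran from 46.4% (fold of 10 or more) to 66.1% (10 kb window). With replicate 1 alone the count was 10, against 72.8% of all genes, and with replicate 2 alone 9, against 64.1%. At a span end replicate 1 alone gave 10, against 61.8% of all genes, and replicate 2 alone 9, against 52.3%. At a start they gave 8 and 7, against 63.1% and 54.4%. All other windows and thresholds left the counts at 9 and 7. The all-gene shares then ran from 35.8% to 61.1% at an end and from 38.4% to 58.2% at a start. For the other mitochondrial genes the count of 38 was 24 with a fold of 10 or more, by the construction of that stricter filter. It was 29 with a 500 bp window and 44 with a 5 kb window, and 39 to 43 with single replicates. The shares of all genes in these settings were 35.8%, 43.2%, 61.1% and 52.3% to 61.8%. The count was 38 of 46 with annotated starts in place of ends, against 54.0% of all genes with a start. This alternative was chosen after seeing the data. Ranking by −log10 q in place of fold, or using 1 replicate, gave the same strongest fold at each of the 9 genes. These folds are deposited values, so the settings could change only which peak was picked. Among replicate 1 peaks with folds near Opa1's 9.41, 63.3% had a partner; the read depth is unknown and its part in this was not tested.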
